A study of Mus musculus with 6 samples.

Results

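The tetraspanin family was followed between luminal mammary epithelial cells with high and with low activity of a *Sox9* reporter. Genes were taken as members by their symbol on the array, either Tspan with a number or one of *Cd9*, *Cd37*, *Cd53*, *Cd63*, *Cd81*, *Cd82* and *Cd151*, which gave 26 of 19505 named genes. The probe set of a gene was to be chosen by its mean over the 6 arrays, the only measured value in the rule, and as each member had 1 probe set this removed none. *Tspan7* was not analysed here. There were 3 arrays of luminal Sox9-GFP high cells and 3 of luminal Sox9-GFP low cells, both FACS-sorted from mammary glands of 3 females aged about 3 months, which were Sox9-GFP;C3(1)/Tag mice on an FVB/NJ background. All of these mice carried both transgenes, a GFP reporter that follows *Sox9* and SV40 large T antigen under the C3(1) promoter, so neither sort stands for luminal cells of a mouse without T antigen. Arrays carry the numbers 1 to 3 within each sort with no animal named, and whether glands were pooled is not stated, so p-values measure the spread between these arrays.

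Tetraspanins are small proteins that pass through the membrane several times and carry a large extracellular loop held together by cysteine bridges. They gather integrins, proteases and other membrane proteins into shared microdomains, and several of them are hallmarks of endosomes and of the vesicles that cells release. In epithelia they are best known for holding laminin-binding integrins at the cell surface and for steering the protease ADAM10, and TSPAN8 has been used to mark a stem-like subset of mouse mammary cells.

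The values are log2 values per probe set as the authors deposited them, and a difference is the mean of the Sox9-GFP high arrays minus that of the Sox9-GFP low arrays. All 22206 probe sets were fitted together in limma, with p-values adjusted by Benjamini-Hochberg over all of them and a threshold of 0.05. Array medians lay between 5.15 and 5.21, and as no measure of background was used here, values near or below these medians may be background. Probe sets differ in brightness for one amount of RNA, so only values of the same gene are compared between sorts. *Sox9* itself was 14.42, 13.77 and 14.46 in Sox9-GFP high arrays against 13.36, 12.82 and 13.44 in Sox9-GFP low arrays, 2.02-fold higher (adjusted p = 0.0360 from limma). That call was lost without any one of the 6 arrays except Sox9-GFP high replicate 2. Adjusted p reached 0.173 when a number was dropped from both sorts. Those fits took no account of the numbers that arrays carry. Between arrays of equal number the *Sox9* differences were 1.07, 0.95 and 1.02. A limma fit to all 6 arrays with a term for these numbers called *Sox9* higher (adjusted p = 0.00475). In bulk RNA, fewer cells with a transcript and less of it per cell cannot be told apart.

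Tetraspanins moved in both directions. *Tspan8* and *Tspan33* were lower in Sox9-GFP high cells, *Tspan6*, *Tspan2* and *Tspan9* were higher, and 21 members did not pass the test. Members called thus made up 19.2% of the family, where 7.2% of all probe sets were called (4% higher and 3.2% lower) and 13.1% of those brighter than the median probe set (7.2% higher and 5.9% lower). All 5 called members were among the 20 members brighter than it. The median difference over the 26 members was -0.0069 on the log2 scale, against 0.0121 over all probe sets, with 11 members above 0 and 15 below. The arrays of both sorts did not overlap in 13 members, with Sox9-GFP high arrays on top in 5 and at the bottom in 8. That is 50% of the family, against 25.5% of all probe sets (14.1% higher and 11.4% lower). With a replicate block for the array number, 5 members were higher and 5 lower, where 11.3% of all probe sets were called (6.32% higher and 4.99% lower), as *Tspan5*, *Tspan3*, *Tspan1*, *Tspan4* and *Tspan14* joined them.

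**Figure D1:**
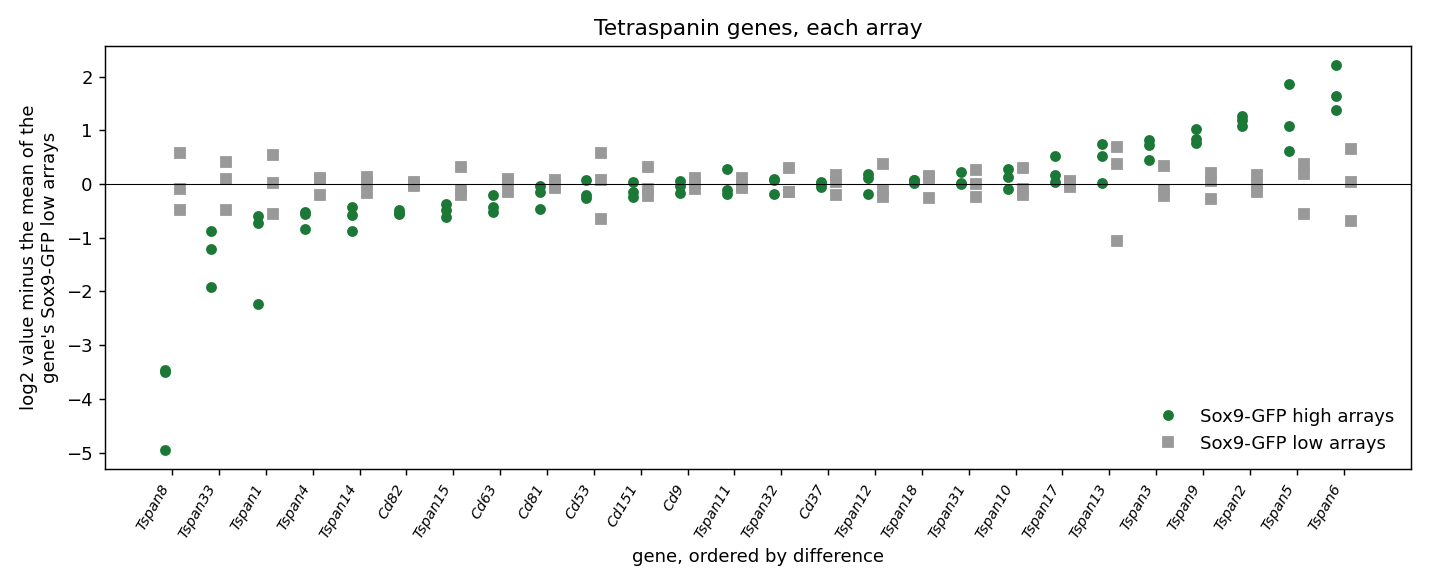
Log2 values of the 26 tetraspanin genes on each array, minus the mean of the gene's Sox9-GFP low arrays (y axis), ordered by the difference between sorts (x axis), with Sox9-GFP high arrays as circles and Sox9-GFP low arrays as squares. The circles lie clear below the squares in the 8 genes at the left, from *Tspan8* to *Cd63*, and clear above them in the 5 genes at the right, from *Tspan3* to *Tspan6*.

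The stretches of 250 bases before the transcription starts of the 5 called members are given here, from RefSeq (GRCm38.p6), because these genes moved in opposite directions in cells sorted on a reporter of a SOX factor. Capitals mark ACAAT or its reverse complement ATTGT, the core of the sequence bound by SOX proteins.
Tspan8 (chr10:115817034-115817283, + strand): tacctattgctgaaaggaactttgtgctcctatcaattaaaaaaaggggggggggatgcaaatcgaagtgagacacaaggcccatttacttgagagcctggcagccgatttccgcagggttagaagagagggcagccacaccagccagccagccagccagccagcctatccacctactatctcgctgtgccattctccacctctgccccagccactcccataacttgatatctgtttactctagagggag
Tspan33 (chr6:29693964-29694213, + strand): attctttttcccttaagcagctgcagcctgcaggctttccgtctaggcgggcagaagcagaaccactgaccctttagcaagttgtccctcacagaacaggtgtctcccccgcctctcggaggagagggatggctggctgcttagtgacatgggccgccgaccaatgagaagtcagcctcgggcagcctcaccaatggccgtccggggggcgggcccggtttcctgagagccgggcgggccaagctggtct
Tspan6 (chrX:133898430-133898679, - strand): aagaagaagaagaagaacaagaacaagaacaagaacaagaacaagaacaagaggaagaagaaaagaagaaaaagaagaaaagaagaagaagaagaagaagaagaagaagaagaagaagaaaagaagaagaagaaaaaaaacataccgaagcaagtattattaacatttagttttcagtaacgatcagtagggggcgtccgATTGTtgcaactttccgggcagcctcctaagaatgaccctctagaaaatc
Tspan2 (chr3:102734520-102734769, + strand): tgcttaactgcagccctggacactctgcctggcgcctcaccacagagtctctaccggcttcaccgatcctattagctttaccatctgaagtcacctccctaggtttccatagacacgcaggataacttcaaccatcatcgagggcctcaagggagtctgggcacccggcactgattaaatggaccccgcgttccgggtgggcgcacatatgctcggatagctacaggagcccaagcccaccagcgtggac
Tspan9 (chr6:128143579-128143828, - strand): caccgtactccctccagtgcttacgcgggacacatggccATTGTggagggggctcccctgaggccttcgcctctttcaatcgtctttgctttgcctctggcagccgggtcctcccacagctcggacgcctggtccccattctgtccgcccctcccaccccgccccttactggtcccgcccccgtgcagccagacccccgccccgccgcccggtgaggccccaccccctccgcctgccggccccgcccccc
The stretches of *Tspan6* and of *Tspan9* hold the letters once each, as do those of 2 other starts of *Tspan9*, and those of *Tspan8*, *Tspan33* and *Tspan2* do not hold them. *Tspan2* has 2 listed starts and *Tspan9* 4, of which the first is shown, while the gene records of *Tspan8* and *Tspan6* also extend upstream of the start used. The letters occurred in 27.7% of 32851 promoter stretches of this length and in 9 of the 35 stretches listed for 25 tetraspanins (25.7%), so the family was near the background. In all, 7 members held them at 1 or more starts. Besides *Tspan6* and *Tspan9* these were *Tspan14* and *Tspan15*, whose Sox9-GFP high arrays lay lower without overlap, and *Cd151*, *Cd37* and *Tspan32*, whose arrays overlapped. Apart from *Tspan6* and *Tspan9*, none of them passed in the fit without block. CG dinucleotides, which are dense in the promoters of broadly used genes, numbered 4 before *Tspan8*, 13 before *Tspan33*, 5 before *Tspan6*, 12 before *Tspan2* and 19 before *Tspan9*. The median was 12 over the first listed stretch of each member and 6 over all stretches of all genes. The latter include later listed starts, so these 2 medians do not compare like with like.

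The largest difference in the family was that of *Tspan8*, a surface tetraspanin of glandular epithelia (probe set TC1000001333.mm.2). Its log2 values were 5.23, 6.72 and 6.67 in Sox9-GFP high arrays, against 9.69, 10.08 and 10.75 in Sox9-GFP low arrays. The sorts stood far apart, and Sox9-GFP high replicate 1 was the lowest of all and close to the array median. The mean was 6.20 ± 0.85 in Sox9-GFP high cells against 10.17 ± 0.53 in Sox9-GFP low cells (SD, n = 3 each), which is 15.7-fold lower (difference -3.97, standard error 0.40, limma adjusted p = 5.95e-04). Within the numbers the differences were -4.47, -3.36 and -4.08. When each array, or each number in both sorts, was left out in turn, all 9 fits called it, at 11.2-fold to 19.3-fold lower. As for every member without overlap, the exact permutation test over arrays gave p = 0.10 (two-sided), the smallest that 3 arrays against 3 allow.

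*Tspan33*, one of the tetraspanins that bind ADAM10 and a partner of the adherens junction protein PLEKHA7, also fell. It was 9.50, 9.17 and 8.46 in Sox9-GFP high arrays and 10.78, 10.46 and 9.88 in Sox9-GFP low arrays, 2.52-fold lower (difference -1.33, standard error 0.30, limma adjusted p = 0.0262, and 0.00129 with the replicate block). The drop within each number was nearly equal, with differences of -1.29, -1.29 and -1.42, while the level itself was lowest on replicate 3 of both sorts. It kept the call in 3 of the 9 fits with arrays left out, at adjusted p up to 0.131 and 2.06-fold to 2.99-fold lower, and lost it without Sox9-GFP high replicate 2 or 3, Sox9-GFP low replicate 1 or 2, or replicate 1 or 2 of both sorts.

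*Tspan1*, a tetraspanin of secretory and ductal epithelia, followed the same order. Its values were 11.44, 11.32 and 9.80 in Sox9-GFP high arrays and 12.57, 12.06 and 11.47 in Sox9-GFP low arrays, with no overlap. The difference was -1.18 (standard error 0.42), past the threshold only with the replicate block (limma adjusted p = 0.132 without and 0.00718 with it). Without Sox9-GFP high replicate 3 it was -0.66. Replicate 3 was the lowest array in both sorts for *Tspan1*, as it was for *Tspan33*. *Tspan4*, which builds the migrasomes left behind by migrating cells, was 9.09, 9.13 and 8.81 in Sox9-GFP high arrays against 9.74, 9.77 and 9.45 in Sox9-GFP low arrays. Its difference of -0.65 (standard error 0.18) was -0.66, -0.64 and -0.64 within the numbers and again passed only with the block (limma adjusted p = 0.0621 without and 0.0343 with it) or after quantile normalization (0.0487).

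Some markers of ER-negative luminal cells moved with these genes. Of 7 such markers, *Elf5*, *Ltf*, *Csn3* and *Lalba* were lower in Sox9-GFP high cells, where 3.2% of all probe sets were called lower. *Aldh1a3* and *Wfdc18* did not pass, and neither did *Kit*, which lay the other way with no overlap (difference 0.44, limma adjusted p = 0.150). The mean log2 value over the 7 lay between 12.5 and 13.2 in Sox9-GFP high arrays and between 14.7 and 15.2 in Sox9-GFP low arrays, and none of the 7 was below the median probe set. Their part in the differences of *Tspan8*, *Tspan33* and *Tspan1* was not tested. Of 8 general luminal markers 1 was lower (*Krt19*) and none was higher, though *Krt7* was higher with the replicate block (difference 0.97, limma adjusted p = 0.0708 without and 0.00806 with it), and their mean lay between 14.9 and 15.2 in Sox9-GFP high arrays and between 15.0 and 15.3 in Sox9-GFP low arrays. Of 8 basal markers 1 was higher (*Krt17*) and none was lower. *Krt5* and *Myh11*, which mark basal cells, were below the array medians in both sorts. *Krt14* was bright in both, averaging 14.80 in Sox9-GFP high cells against 14.25 in Sox9-GFP low cells, with overlapping arrays. Its difference of 0.55 was 0.56, 0.29 and 0.80 within the numbers and did not pass (limma adjusted p = 0.159, and 0.0816 with the replicate block). Over the 8 markers, 4 differences were above 0 and 4 below. The mean over the 8 lay between 6.99 and 7.73 in Sox9-GFP high arrays and between 6.90 and 7.38 in Sox9-GFP low arrays. Of 5 fibroblast markers *Dcn* was lower and none was higher. *Dcn* averaged 9.44 in Sox9-GFP high cells against 11.66 in Sox9-GFP low cells, 4.67-fold lower (limma adjusted p = 0.00122). *Postn* lay the other way without overlap, 5.46-fold higher (difference 2.45), and was called with the replicate block (limma adjusted p = 0.0617 without and 0.000965 with it), as was *Dpt* in the lower direction (0.133 without and 0.0354 with it). *Col1a2* and *Dpt* were below the array medians in both sorts, and the mean over the 5 markers overlapped (6.56 to 6.89 in Sox9-GFP high arrays against 6.53 to 7.20 in Sox9-GFP low arrays). None of 4 adipocyte markers passed and 3, *Adipoq* included, were below the array medians, while their mean was lower in Sox9-GFP high arrays (5.05 to 5.41) than in Sox9-GFP low arrays (5.49 to 5.61). Of these genes *Fabp4* had a difference of -1.42 with overlapping arrays, and the other 3 had differences between -0.12 and 0.04. Of 4 ER-positive luminal markers *Ly6d* was higher, *Esr1* was below the array medians, and the mean lay between 7.06 and 7.43 in Sox9-GFP high arrays and between 6.98 and 7.21 in Sox9-GFP low arrays.

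Of the members that rose, *Tspan6*, which in human cells dampens signalling through the antiviral adaptor MAVS, had the largest difference. It was 7.36, 7.92 and 7.08 in Sox9-GFP high arrays, against 6.37, 5.74 and 5.02 in Sox9-GFP low arrays. Both sorts were spread, but the lowest Sox9-GFP high array stayed above the highest Sox9-GFP low array. The means of 7.45 ± 0.43 in Sox9-GFP high cells against 5.71 ± 0.67 in Sox9-GFP low cells (SD, n = 3 each) differed by 1.74 (standard error 0.33), a 3.35-fold rise (limma adjusted p = 0.0120, and 0.00232 with the replicate block). Within the numbers the differences were 0.99, 2.18 and 2.06. The Sox9-GFP low values lay near the array medians, where values may be background. The call held in 8 of the 9 fits with arrays left out and was lost without replicate 2 of both sorts (adjusted p = 0.0973).

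*Tspan2*, best known from oligodendrocytes, had the tightest arrays of the called members. It was 7.88, 8.07 and 7.99 in Sox9-GFP high arrays and 6.79, 6.65 and 6.98 in Sox9-GFP low arrays, 2.26-fold higher (difference 1.17, standard error 0.17, limma adjusted p = 0.00349, and 0.00306 with the replicate block). It passed in all 9 fits with arrays left out, at 2.07-fold to 2.40-fold. *Tspan9*, a tetraspanin of platelets and their precursors, was 8.12, 8.21 and 8.39 in Sox9-GFP high arrays and 7.43, 7.09 and 7.57 in Sox9-GFP low arrays, without overlap. That is a 1.83-fold rise (difference 0.87, standard error 0.19, limma adjusted p = 0.0212, and 0.0127 with the replicate block), with differences of 0.69, 1.12 and 0.81 within the numbers. It kept the call in 3 of those 9 fits, with adjusted p up to 0.120, and lost it without Sox9-GFP high replicate 2 or 3, Sox9-GFP low replicate 2, or any 1 number. The platelet markers *Pf4*, *Itga2b* and *Gp9* did not pass, and their mean lay between 5.84 and 6.02 in Sox9-GFP high arrays and between 5.33 and 5.97 in Sox9-GFP low arrays.

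*Tspan5* and *Tspan3* passed with the replicate block but not without it. *Tspan5* was 11.07, 9.83 and 10.30 in Sox9-GFP high arrays against 9.58, 8.65 and 9.41 in Sox9-GFP low arrays, and replicate 2 was the lowest of both sorts. Its difference of 1.19 (standard error 0.33), a 2.28-fold one, was 1.49, 1.18 and 0.89 within the numbers (limma adjusted p = 0.0617 without and 0.00366 with the block). It also passed with a trended, robust prior (0.0458) and without Sox9-GFP high replicate 2 (0.0385). *Tspan3*, first described in a complex with claudin-11 in oligodendrocytes, was 11.92, 12.01 and 11.63 in Sox9-GFP high arrays against 11.08, 11.53 and 10.96 in Sox9-GFP low arrays. Its difference was 0.66 (standard error 0.20, limma adjusted p = 0.0853 without and 0.0369 with the block).

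**Figure D2:**
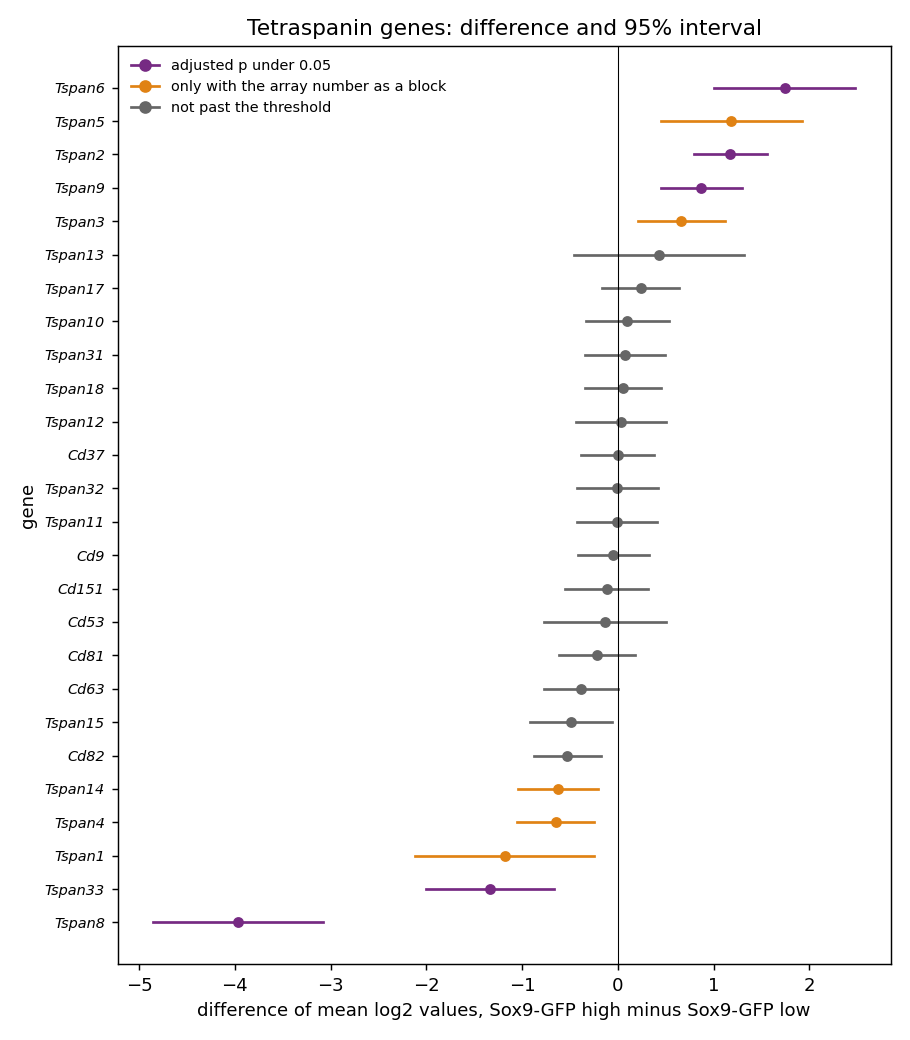
Difference of mean log2 values of each tetraspanin gene, Sox9-GFP high minus Sox9-GFP low (x axis, point), with its 95% interval from the limma fit (line). Of the 26 genes, *Tspan8* and *Tspan33* at the bottom and *Tspan6*, *Tspan2* and *Tspan9* near the top passed the threshold. With the array number as a block 5 more passed, among them *Tspan5*, which lies between *Tspan6* and *Tspan2*.

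A group of 6 tetraspanins, called TspanC8 after the cysteines in their large loop, carries the protease ADAM10 out of the endoplasmic reticulum and decides which membrane proteins it cuts, Notch receptors and cadherins among them. The group split between directions. *Tspan33* fell, and *Tspan5*, with a difference of 1.19, was higher past the threshold with the replicate block. *Tspan14*, the most widely expressed of the group, was 13.68, 13.53 and 13.23 in Sox9-GFP high arrays and 14.23, 14.15 and 13.94 in Sox9-GFP low arrays, without overlap. Its difference of -0.63 (standard error 0.19) passed with the replicate block and with a trended, robust prior (limma adjusted p = 0.0769 in the fit without block, 0.0401 and 0.0451 under these settings). *Tspan15*, which in cultured cells directs ADAM10 to N-cadherin, was 9.53, 9.67 and 9.78 in Sox9-GFP high arrays and 10.04, 10.47 and 9.94 in Sox9-GFP low arrays. These did not overlap either, but the difference of -0.49 (95% interval -0.92 to -0.06) did not pass (limma adjusted p = 0.176).

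*Tspan17*, the closest relative of *Tspan5* in the group, was 9.41, 9.06 and 8.94 in Sox9-GFP high arrays and 8.84, 8.94 and 8.91 in Sox9-GFP low arrays. The sorts overlapped and the interval of the difference was -0.17 to 0.64. *Tspan10*, a gene of pigment cells, lay well below the array medians in both sorts (2.91 to 3.27 in Sox9-GFP high arrays against 2.79 to 3.30 in Sox9-GFP low arrays), so a difference may not have been detectable. *Adam10* itself was 12.44, 12.53 and 12.62 in Sox9-GFP high arrays and 12.62, 12.66 and 12.41 in Sox9-GFP low arrays, overlapping, with a difference of -0.03 whose interval ran from -0.40 to 0.34.

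**Figure D3:**
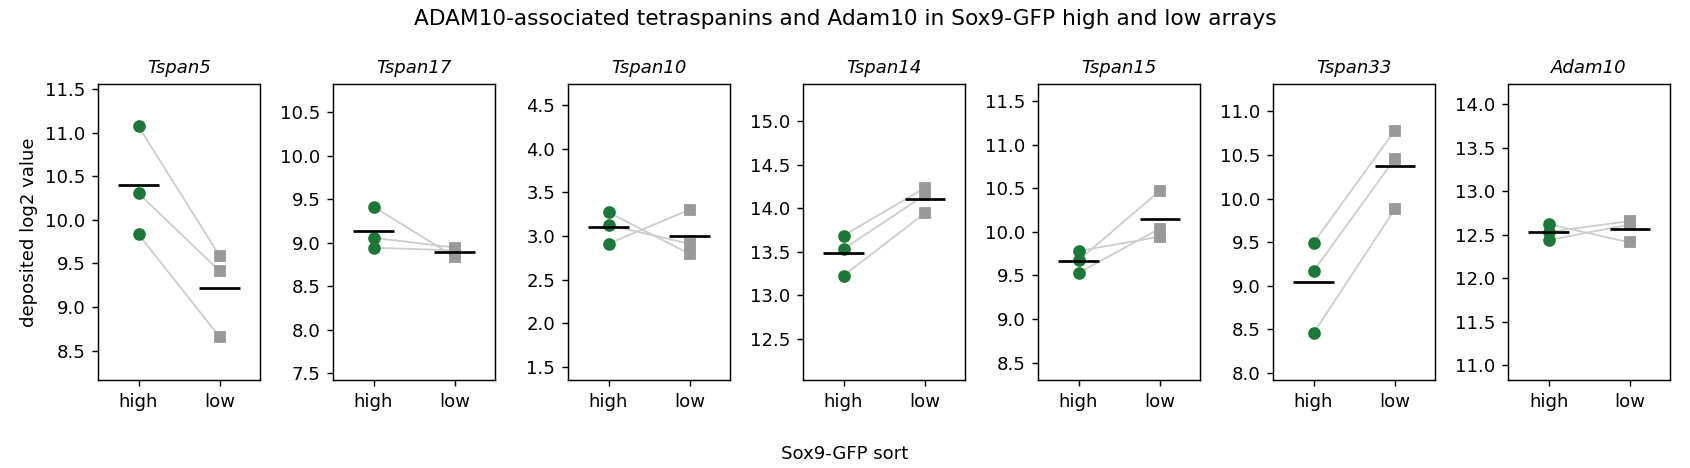
Deposited log2 values (y axis, each panel spanning the same range) of the 6 TspanC8 genes and *Adam10* in the Sox9-GFP high and Sox9-GFP low arrays (x axis), with bars for the means and lines joining arrays of the same number. Lines fall to the right for *Tspan5* on all 3 numbers, climb to the right for *Tspan14*, *Tspan15* and *Tspan33*, and cross for *Adam10*.

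*Cd63*, *Cd9* and *Cd81*, tetraspanins of endosomes and released vesicles, lay far above the array medians in both sorts and did not pass. *Cd63*, the lysosomal and exosomal member, was 16.24, 16.55 and 16.33 in Sox9-GFP high arrays and 16.85, 16.61 and 16.81 in Sox9-GFP low arrays. The sorts did not overlap, yet arrays numbered 2 differed by only -0.05, and the difference of -0.38 (95% interval -0.77 to 0.01) did not pass (limma adjusted p = 0.250). *Cd9*, which sits with integrins and the immunoglobulin proteins IGSF8 and PTGFRN, was 16.16, 16.30 and 16.38 in Sox9-GFP high arrays and 16.43, 16.22 and 16.32 in Sox9-GFP low arrays, with an interval of -0.42 to 0.32. *Cd81*, the near relative of *Cd9*, was 15.90, 15.48 and 15.78 in Sox9-GFP high arrays and 16.02, 15.88 and 15.93 in Sox9-GFP low arrays, with an interval of -0.61 to 0.18.

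*Cd82*, known as a suppressor of metastasis in human carcinomas, showed a small difference with very little spread. It was 14.02, 14.04 and 14.10 in Sox9-GFP high arrays and 14.55, 14.61 and 14.58 in Sox9-GFP low arrays. The means of 14.05 ± 0.04 in Sox9-GFP high cells against 14.58 ± 0.03 in Sox9-GFP low cells (SD, n = 3 each) differed by -0.53, 1.44-fold lower. limma, which draws the spread of each gene toward that of all others, gave a standard error of 0.16 and an adjusted p of 0.0781 (0.0725 with the replicate block and 0.0393 with a trended, robust prior). *Cd151*, the partner of the laminin-binding integrins in hemidesmosomes, was 10.82, 11.11 and 10.93 in Sox9-GFP high arrays and 10.84, 11.38 and 10.98 in Sox9-GFP low arrays, overlapping, with an interval of -0.55 to 0.32.

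The leukocyte members were dim in both sorts. *Cd37* and *Cd53*, which organise receptors on white blood cells, averaged 3.45 ± 0.05 and 3.39 ± 0.19 in Sox9-GFP high cells, against 3.45 ± 0.19 and 3.52 ± 0.62 in Sox9-GFP low cells (SD, n = 3 each), and *Tspan32*, of the same lineage, averaged 4.38 in both. All were below the array medians. So were all 8 of 8 measured immune markers, *Ptprc* and *Cd3e* included, whose mean lay between 3.76 and 3.93 in Sox9-GFP high arrays and between 3.78 and 4.01 in Sox9-GFP low arrays. *Tspan18*, known from endothelium, averaged 2.81 in Sox9-GFP high cells against 2.75 in Sox9-GFP low cells, and *Tspan11* averaged 3.73 in Sox9-GFP high cells against 3.74 in Sox9-GFP low cells. None of 6 endothelial markers passed, and their mean lay between 4.27 and 4.60 in Sox9-GFP high arrays and between 4.25 and 4.82 in Sox9-GFP low arrays.

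Of the remaining members, *Tspan31*, a gene amplified in human sarcomas, overlapped between the sorts at 13.87 ± 0.13 in Sox9-GFP high cells against 13.79 ± 0.25 in Sox9-GFP low cells (SD, n = 3 each). *Tspan12*, a co-receptor that helps norrin signal through FZD4, averaged 10.39 ± 0.19 in Sox9-GFP high cells against 10.36 ± 0.33 in Sox9-GFP low cells. *Tspan13*, which did not pass, varied widely, at 10.74 ± 0.37 in Sox9-GFP high cells against 10.31 ± 0.93 in Sox9-GFP low cells (SD, n = 3 each). Its difference of 0.43 had an interval of -0.46 to 1.32, and Sox9-GFP low replicate 3, at 9.25, lay apart, with a difference of -0.10 without it.

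Genes that work with tetraspanins were read from a list of 31 partners and ADAM10 substrates, 30 of them measured. Of these, limma called 1 lower and none higher, and 29 did not pass (8 of the 30, *Itga6* included, were at an unadjusted p under 0.05). The called gene is 3.33% of the list against 7.2% of all probe sets. Of the 30 genes, 28 were brighter than the median probe set, and 3.57% of these were called. Among all probe sets brighter than it, 13.1% were called. With the replicate block 5 were higher and 3 lower, where 11.3% of all probe sets were called (6.32% higher and 4.99% lower). The lower gene was *Itga6*, the integrin alpha chain that CD151 holds at hemidesmosomes. It was 13.99, 13.27 and 13.74 in Sox9-GFP high arrays and 15.36, 15.01 and 15.25 in Sox9-GFP low arrays, 2.91-fold lower (difference -1.54, standard error 0.22, limma adjusted p = 0.00284), and it passed in all 9 fits with arrays left out. Its protein, CD49f, is among the sorting antibodies of the study, and the sources used here do not give the surface gate for these arrays. Whether the gate had a part in the difference of *Itga6* was not tested.

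None of the other chains of these integrins passed. *Itgb4*, its partner chain in hemidesmosomes, was 10.64, 10.30 and 10.52 in Sox9-GFP high arrays and 10.56, 10.11 and 10.91 in Sox9-GFP low arrays, with an interval of -0.54 to 0.46. *Itgb1* and *Itga3* had intervals of -0.12 to 0.61 and -0.35 to 0.65. Of the immunoglobulin proteins that bind CD9 and CD81, *Ptgfrn* was 12.55, 11.80 and 12.03 in Sox9-GFP high arrays against 11.65, 11.40 and 11.28 in Sox9-GFP low arrays, past the threshold only with the block (difference 0.68, limma adjusted p = 0.102 without and 0.0395 with it). *Igsf8* overlapped between the sorts, with a difference of -0.12 and an interval of -0.65 to 0.40.

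Among the partners that passed with the block, *Fzd4*, the receptor that TSPAN12 assists, was lower, at 6.05, 4.69 and 5.05 in Sox9-GFP high arrays against 6.26, 6.28 and 6.27 in Sox9-GFP low arrays (difference -1.01, limma adjusted p = 0.0786 without and 0.0357 with it). It also passed without Sox9-GFP high replicate 1 (adjusted p = 0.00623), which lay closer to the Sox9-GFP low arrays than the others did. *Zdhhc2*, an enzyme that attaches palmitate to CD9 and CD151, differed by 0.74, and *Hbegf*, a growth factor whose precursor binds CD9, by 0.80 (limma adjusted p = 0.147 and 0.295 without the block, 0.0231 and 0.0268 with it). Without Sox9-GFP low replicate 2 the difference of *Hbegf* was 0.345. The adhesion molecules of endothelial tetraspanin domains, *Icam1* and *Vcam1*, had differences of 0.90 and -0.72, and *Cxcl16*, a chemokine cut by ADAM10, had one of 0.86 (limma adjusted p = 0.0609, 0.0964 and 0.0644 without the block, 0.0282, 0.0315 and 0.0301 with it). *Vcam1* on all Sox9-GFP high arrays and *Fzd4* on Sox9-GFP high replicates 2 and 3 lay below the array medians, where values may be background.

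**Figure D4:**
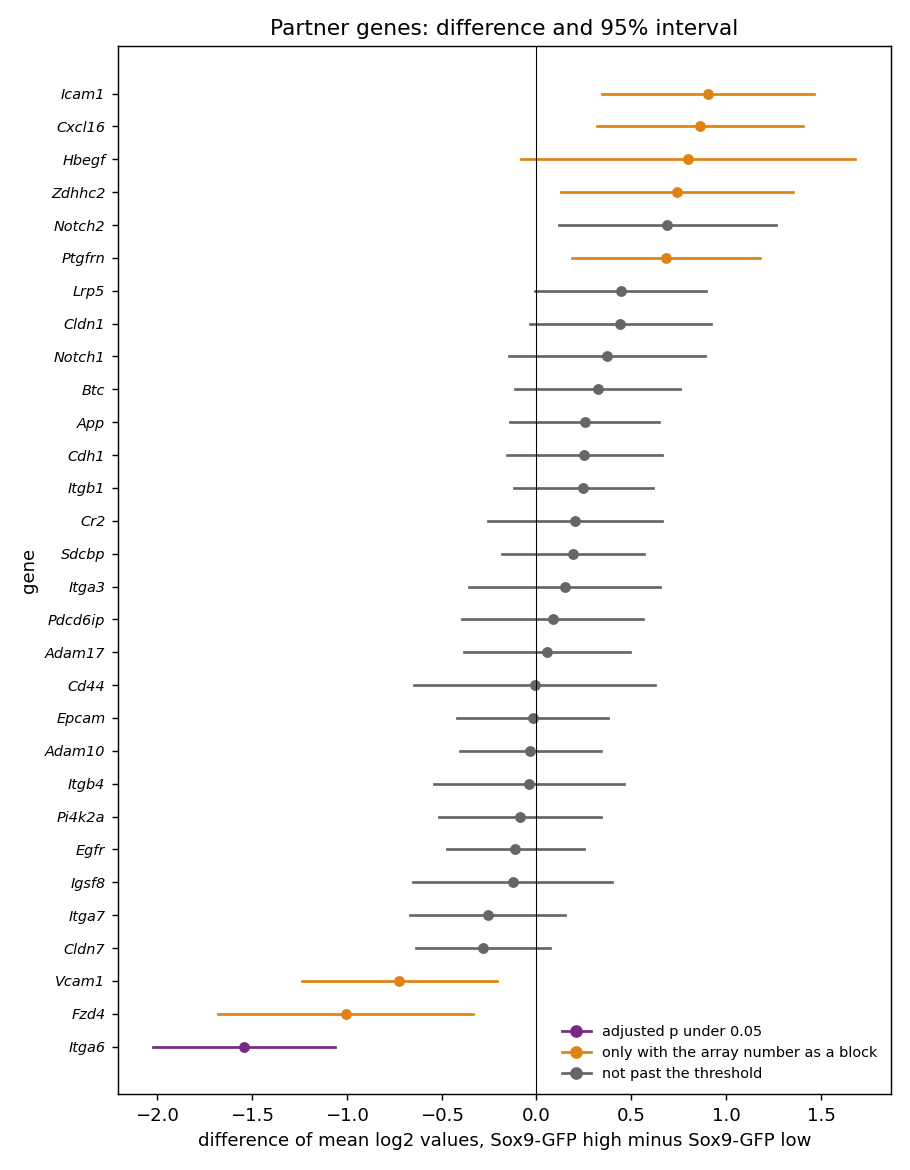
Difference of mean log2 values of 30 tetraspanin partners and ADAM10 substrates, Sox9-GFP high minus Sox9-GFP low (x axis, point), with the 95% interval from the limma fit (line). *Itga6*, at the bottom, passed the threshold, and 7 more genes passed with the array number as a block.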

How the data were processed

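RNA of FACS-sorted luminal cells was labelled for one-colour GeneChip arrays, 1 array per sample. The values the authors deposited are log2, 1 per probe set and array. The sources used here do not say how these arrays were summarised and normalized. Near-equal array medians show only that the scales match, and any compression of dim values stays in the differences. Gene names came from the platform annotation, in which 19572 of 22206 probe sets carry 1 symbol, 0 carry several and 2634 are unnamed here. All 19572 matched a RefSeq table (GRCm38.p6) by gene identifier, with 0 symbols changed.

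Linear models with moderated, two-sided tests (limma 3.58.1 in R 4.3.3) were fitted to all probe sets, without a block because the methods name an unpaired test. The fit without block was tested on simulated arrays drawn independently of each other, so that test did not cover the pairing of arrays by number. The labels give arrays the numbers 1 to 3 in both sorts. After subtracting sort means, arrays of equal number correlated at 0.236, 0.232 and 0.218, so numbers were read as pairs, and blocked values are given beside the calls they change. Members, lists and tests were chosen with earlier results of these data known, so counts over members describe the family and are no independent support.

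Named are all members past the threshold or without overlap, the brightest 6, the TspanC8 group, the CD members, called partners and direct partners. The other members, partners called with the block, and *Sox9* are named for completeness, the partners after their values were seen. Alternatives were the block, quantile normalization, median centring, testing without the dimmest 33% of probe sets, array weights, a robust prior with a trend, dropping each array or number in turn, the t-test of the methods, and averaging the probe sets of a gene. Protein sequences were not used here. With 3 arrays per sort, precision is limited by their number.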

Additional observations from a re-analysis of the deposited data

How the results depend on the processing

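*Tspan8*, *Tspan2* and *Itga6* kept direction and call under every setting run except the methods' t-test after Benjamini-Hochberg, which called 3 probe sets (1 higher, 2 lower), 0 tetraspanins (0 higher, 0 lower) and 0 partners (0 lower). Without adjustment that test gave 3765 probe sets (2118 higher, 1647 lower), 10 tetraspanins (4 higher, 6 lower) and 5 partners (3 higher, 2 lower) at p under 0.05. The replicate block gave 2512 probe sets (1404 higher, 1108 lower, sharing 1598 of the 1599 called without it), 10 tetraspanins (5 higher, 5 lower) and 8 partners (5 higher, 3 lower). A trended and robust prior gave 8 tetraspanins (4 higher, 4 lower) and 3 partners (2 higher, 1 lower), and array weights gave 2 partners, both lower (2). Quantile normalization, median centring and omitting dim probe sets left 5 or 6 tetraspanins. Averaging the probe sets of a gene could not alter the values of members or partners, as each had 1 probe set. Leaving out arrays gave 547 to 1231 probe sets (231 to 672 higher, 316 to 563 lower), 2 to 5 tetraspanins (1 to 3 higher, 1 to 2 lower), 1 to 2 partners (all lower) and a family median of -0.106 to 0.068. Members that did not pass changed sign in places. Quantile normalization put *Cd37* at 0.00887, *Cd9* at 0.0334 and *Tspan12* at -0.0241, and array weights put *Cd37* at 0.00707, *Tspan32* at 0.0386 and *Adam10* at 0.00322. With arrays left out, *Cd151* spanned -0.23 to 0.0423, *Cd37* -0.13 to 0.0806, *Cd53* -0.46 to 0.22, *Cd9* -0.11 to 0.0633, *Tspan10* -0.0875 to 0.35, *Tspan11* -0.18 to 0.14, *Tspan12* -0.0891 to 0.22, *Tspan13* -0.10 to 0.77, *Tspan18* -0.0810 to 0.13, *Tspan31* -0.0446 to 0.21, *Tspan32* -0.12 to 0.23, *Adam10* -0.15 to 0.0431, *Igsf8* -0.33 to 0.0507, *Itga3* -0.0309 to 0.32 and *Itgb4* -0.25 to 0.15. The cause of these changes was not tested, and with 4 to 5 arrays, and no block, fits have less precision. No signal over background was used here, which touches the 6 members below the median probe set.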

Other observations

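Tetraspanins by structure whose symbols the family rule does not take were dim in both sorts. The uroplakins *Upk1a* and *Upk1b*, of the bladder surface, averaged 4.53 ± 0.07 and 3.09 ± 0.21 in Sox9-GFP high cells, against 4.26 ± 0.32 and 3.04 ± 0.26 in Sox9-GFP low cells (SD, n = 3 each). The photoreceptor genes *Prph2* and *Rom1* averaged 3.17 ± 0.36 and 5.13 ± 0.17 in Sox9-GFP high cells, against 3.08 ± 0.03 and 5.39 ± 0.54 in Sox9-GFP low cells. None of the 4 passed in limma (0 at an unadjusted p under 0.05), and 3 of them lay below the median probe set. Over these genes the arrays overlapped throughout.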
